A study of Mus musculus with 10 samples.

Results

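Strong distal H3K9me3 called in wildtype but not in Arid1a knockout hepatocytes made up 1301 of the 141657 H3K9me3 summits found on the autosomes of the wildtype (WT) cells. A summit is the position of highest signal in a peak called by chromatin immunoprecipitation and sequencing (ChIP-seq), and its −log10 q-value states how far the signal stood above the input, with larger values for stronger peaks. The 1301 members were chosen by these measured values, as all WT summits with a −log10 q of at least 5, no H3K9me3 summit of the knockout (KO) cells within 1 kb, and no annotated transcript start within 2 kb. They are called WT-only summits below, where "only" means this distance and nothing more, since a KO summit often lay just beyond 1 kb. The rule kept 5787 WT summits for strength, then 5011 for distance to transcript starts, and of these 1301, or 26.0%, had no KO summit nearby. Of all 116971 distal WT summits, weak ones included, 66.6% had none.

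All cells were AB17, 1 hepatocyte line from an Arid1a fl/fl mouse of C57BL/6 background, immortalized with SV40 large T and transduced with H-Ras V12D, which the WT and KO cells share. The WT cells were infected with Ad-GFP, an adenovirus carrying GFP, and the KO cells with Ad-Cre, an adenovirus carrying Cre recombinase, which deletes the floxed Arid1a (Arid1a-/-). The lists used were H3K9me3 and H3K27me3 in both genotypes and Arid1a, Brg1, Ctcf and Rad21 in WT cells, with 1 library per group. No difference between the genotypes could therefore be tested, and the 95% Wilson intervals given below cover counting error only.

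H3K9me3 is the histone mark of constitutive heterochromatin. It is laid down by the methyltransferases Setdb1 and Suv39h, is bound by the heterochromatin protein 1 family, and is known for silencing satellites, transposable elements and clusters of zinc-finger genes. Arid1a is the DNA-binding subunit of one form of the SWI/SNF nucleosome remodeller, Brg1 (Smarca4) is its ATPase, Ctcf is the zinc-finger protein that marks domain boundaries, and Rad21 is a subunit of the cohesin ring, which Ctcf stops on DNA.

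The sequences below show what the members were made of, and each runs 5′ to 3′ on the plus strand of mm10 (GRCm38) as read from the RefSeq assembly. The first is the strongest member, in which capitals mark bases that lie in a 31-base word found more than once on the autosomes. The second had the strongest Brg1 among members with both SWI/SNF subunits, and capitals mark the 11 bases centred on the H3K9me3 summit. The third had the strongest Ctcf among members with Ctcf and Rad21, and capitals mark a match to CCANNAGNNGGC, the Ctcf consensus with N at its variable positions. The fourth had the strongest H3K27me3, and capitals mark every other copy of a 55-bp unit repeated in tandem.
strongest WT-only summit, chr2:98664986-98665186: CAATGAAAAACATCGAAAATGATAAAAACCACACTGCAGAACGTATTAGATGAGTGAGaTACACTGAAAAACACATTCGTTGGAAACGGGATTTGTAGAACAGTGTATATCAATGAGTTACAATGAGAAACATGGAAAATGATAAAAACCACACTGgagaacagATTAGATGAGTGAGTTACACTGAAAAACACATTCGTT
summit with the strongest Brg1, chr19:5058720-5058920: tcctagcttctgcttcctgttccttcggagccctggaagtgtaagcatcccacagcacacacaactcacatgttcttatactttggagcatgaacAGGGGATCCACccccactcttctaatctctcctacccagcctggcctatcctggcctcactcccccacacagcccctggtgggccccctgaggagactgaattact
summit with the strongest Ctcf beside Rad21, chr5:139364270-139364569: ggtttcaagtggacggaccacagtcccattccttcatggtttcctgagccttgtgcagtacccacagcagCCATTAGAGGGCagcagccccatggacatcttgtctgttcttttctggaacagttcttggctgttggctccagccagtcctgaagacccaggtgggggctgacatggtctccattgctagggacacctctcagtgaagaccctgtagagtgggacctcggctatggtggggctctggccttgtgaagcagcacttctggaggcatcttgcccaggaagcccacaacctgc
summit with the strongest H3K27me3, chr1:78573842-78574042: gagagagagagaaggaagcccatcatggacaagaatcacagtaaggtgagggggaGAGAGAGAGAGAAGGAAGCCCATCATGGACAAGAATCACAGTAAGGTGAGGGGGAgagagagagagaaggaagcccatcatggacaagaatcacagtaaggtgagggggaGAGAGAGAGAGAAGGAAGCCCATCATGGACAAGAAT

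The WT-only summits were mostly of modest strength. Their −log10 q ran from 5.01 to 27.2 with a median of 5.59, and 775 lay under 6, 224 reached 7 and 44 reached 10. A total of 218 different values occurred, and 280 members shared the value 5.59. The strongest WT summit just short of the strength limit, among distal summits without a KO partner, had 4.998. The 3710 strong distal WT summits that did have a KO summit within 1 kb, called shared summits below, had a median of 6.19 and a maximum of 60.8. In the KO cells, 1394 strong distal summits had no WT summit within 1 kb, and these KO-only summits had a median of 5.30 in their own library.

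Most WT-only summits had KO H3K9me3 in the neighbourhood. The nearest KO summit lay 1003 bp from the closest member and 188086 bp from the farthest, with a median of 2222 bp, while the farthest KO summit counted as shared lay at 1000 bp. KO H3K9me3 was within 2 kb of 593 members, between 2 and 5 kb of 281, between 5 and 20 kb of 302, and farther than 20 kb from 125. No KO summit was found within 10 kb of 266 members (20.4%), and none within 50 kb of 23 (1.77%). Within 10 kb a member had a median of 5 WT summits, itself included, and 2 KO summits, against 6 and 5 around a shared summit. The KO counts follow in part from the rule. It allows no KO summit within 1 kb of a member and requires at least 1 for a shared summit. The members were scattered singly, as 1178 had no other member within 10 kb, and the rest formed 52 pairs, 5 groups of 3 and 1 group of 4.

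**Figure D1:**
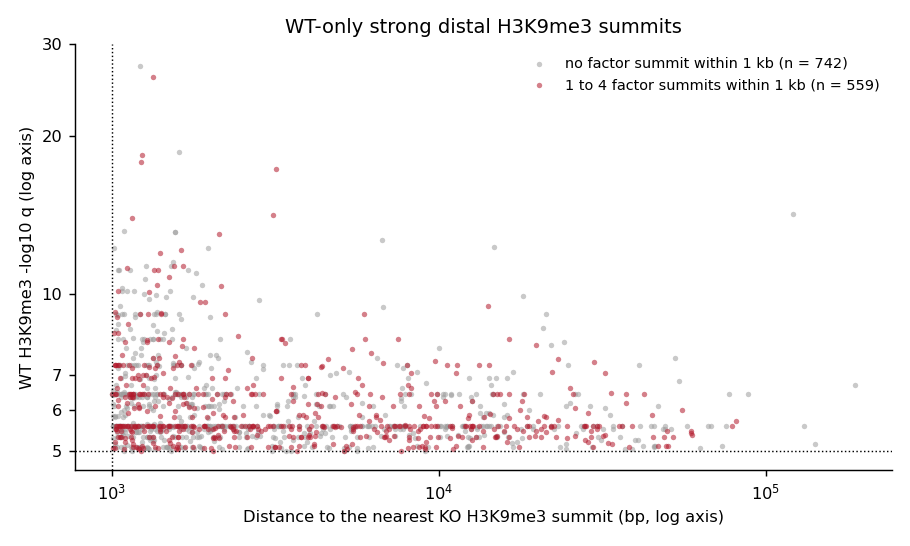
Each point is 1 of the 1301 WT-only summits, with the distance to the nearest KO H3K9me3 summit in bp on a log axis (horizontal) and the WT −log10 q on a log axis (vertical). Red points had an Arid1a, Brg1, Ctcf or Rad21 summit within 1 kb (559) and grey points had none (742); the rows of points at equal height are the repeated values, with 280 members at 5.59, and the dotted lines are the limits of 1000 bp and 5.

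The distal position was set by the rule, and the nearest transcript start lay between 2008 and 369066 bp away with a median of 12345 bp, against 1962 bp for the last summit that the limit left out. Shared summits had a median of 14662 bp and KO-only summits 15592.5 bp. Another 348 strong WT summits without a KO partner lay nearer to a start and are not described here.

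The members were spread unevenly over the chromosomes. Chromosome 10 held 167 of them, or 1.31 per Mb, and chromosome 5 held 146, whereas chromosome 13 held 15, or 0.13 per Mb. All distal WT summits were also denser on chromosome 10, with 83.6 per Mb against 18.3 on chromosome 13. KO-only summits were also densest on chromosome 10, with 1.24 per Mb. As a share of the strong distal WT summits of a chromosome, the members ranged from 11.6% on chromosome 17 (95% interval 7.54 to 17.4%) to 34.0% on chromosome 19 (26.7 to 42.2%), and chromosome 11 had 33.0% (27.8 to 38.6%). Chromosome 10 was near the middle, with 27.6% (24.2 to 31.3%). Chromosomes 10 and 5 also held the most KO-only summits, with 157 and 122, whereas chromosome 11 held 94 members and 53 KO-only summits.

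**Figure D2:**
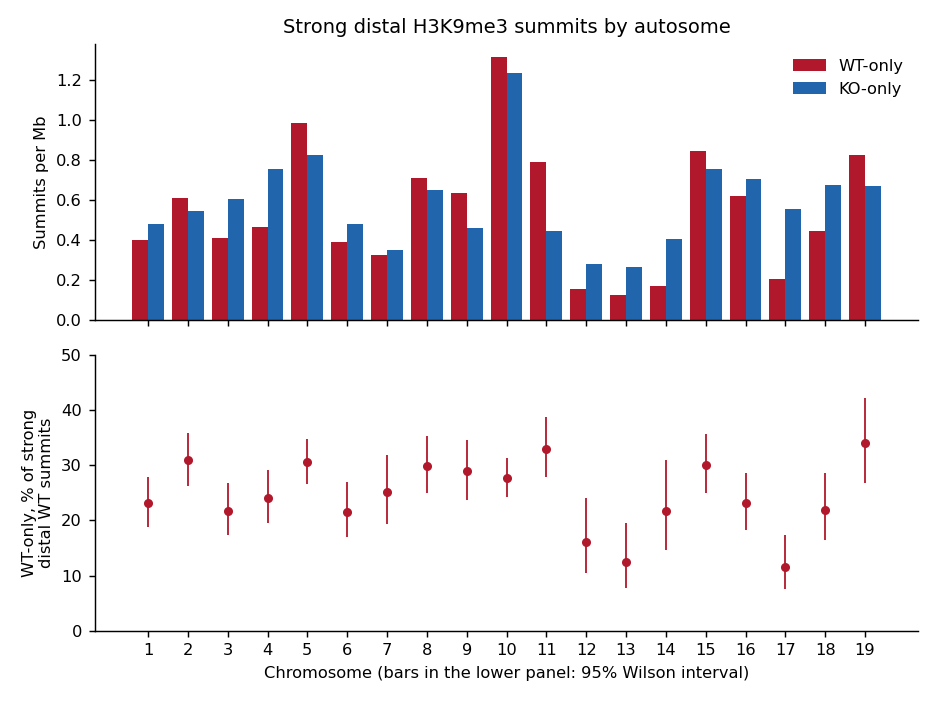
The upper panel gives WT-only (red) and KO-only (blue) strong distal H3K9me3 summits per Mb of known sequence on each autosome, and the lower panel gives the WT-only summits as a percentage of all strong distal WT summits with 95% Wilson intervals. Chromosome 10 stands highest in the upper panel with 1.31 and 1.24 per Mb, and chromosome 17 lowest in the lower panel with 11.6%.

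WT-only summits lay less often in repeated sequence than the other strong summits. The summit base was soft-masked, meaning that the assembly marks it as repetitive without naming a class, in 619 members (47.6%, interval 44.9 to 50.3%), against 43.0% of all distal WT summits. The share was 70.0% (68.5 to 71.4%) of shared summits and 68.9% (66.4 to 71.2%) of KO-only summits, and 34.6% of all distal autosomal bases. The masked stretches under the members were also shorter, with a median of 383 bp against 2734.5 bp under shared and 2145 bp under KO-only summits. Stretches of at least 1000 bp underlay 40.9% of the masked members, 63.2% of the masked shared summits and 58.5% of the masked KO-only summits.

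The copy number of the sequence itself gave the same order. Each 201-bp window around a summit was scored by the median number of times its 31-base words occur on the autosomes. The window occurred once in 860 members (66.1%, 63.5 to 68.6%), against 35.7% of shared and 36.0% of KO-only summits. Copy number was not scored for all distal WT summits, so whether the members differ from that list is not known. More than 10 copies were found for 353 members (27.1%), 54.0% of shared and 49.1% of KO-only summits, and more than 100 for 16.3, 37.2 and 35.3%. Masked members differed from masked shared summits in the same way, since 36.4% (32.7 to 40.2%) of the former and 16.4% (15.1 to 17.9%) of the latter had single-copy windows. Of the 682 members outside masked sequence, 93.1% were single-copy.

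Some of the members in repeated sequence resembled each other. Comparing the 201-bp windows with each other by BLAST, at 80% identity or more over at least 100 bases, 314 members (24.1%) resembled at least 1 other member, in 55 groups of which 17 had 5 or more, with 223 members. Of the 619 masked members, 310 resembled no other. The largest group had 64 members on 19 chromosomes, all in masked sequence with a median stretch of 4358 bp, and 19 of them had a factor summit within 1 kb. Its representative matched 6530 places on the autosomes, 21 members (1.61%), 77 shared summits (2.08%) and 15 KO-only summits (1.08%). The second group had 35 members, and its representative matched 10 members (0.769%), 109 shared summits (2.94%) and 4 KO-only summits (0.287%). Members that resembled another one lay near a KO summit, at a median of 1554 bp against 3006 bp for the others, and had a factor nearby in 28.0% of cases against 47.7%.

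Short tandem arrays were rare overall and underlay 4 of the 12 strongest members. A window counted as tandem when at least 80% of its bases were equal to those a fixed shift of 12 to 140 bases away, which held for 21 members (1.61%, 1.06 to 2.46%), 132 shared summits (3.56%) and 15 KO-only summits (1.08%). The strongest member, at chr2:98665086 with a −log10 q of 27.2, was one of them. It lay in intergenic sequence 2215 bp downstream of the start of Gm10800, repeated itself at a shift of 120 bases with 92.6% identity, and resembled 1 other member, on chromosome 6, at 94.7% identity over 190 bases. The second strongest, at chr14:19415918 with 26.0, lay in an exon of Gm21738 and repeated itself at a shift of 116 bases with 82.4% identity. All 4 factors had a summit 1 to 16 bp from it, with −log10 q of 10.2 for Arid1a, 6.06 for Brg1, 8.11 for Ctcf and 9.57 for Rad21. Tandem units of 72 and 76 bases underlay 2 more of the 12 strongest, in an intron of the tumour suppressor gene Fhit (14.2) and 4250 bp upstream of Fam47e (14.0). At Fhit the nearest KO summit was 120871 bp away. The copy score was 2 for the strongest member, whose summit base was not masked. That score counts assembled autosomal sequence only, so copies missing from the assembly are not in it. What part the copy number of these arrays has in their peak values was not tested.

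Of the other 8 strongest, 5 were intronic and in single-copy sequence. A member of 18.6 lay in an intron of Arhgap10 at chr8:77447538, with the nearest KO summit at 1600 bp. Another of 17.3 lay in an intron of Def8 at chr8:123429180, with KO H3K9me3 at 3174 bp. Introns of the phosphatase gene Ppm1h (13.2), the zinc-finger gene Zfp777 (13.1) and Cdr2l (13.1) held 3 more of the 12 strongest, each without any of the 4 factors within 1 kb. The rest had several copies. A member of 18.4 at chr1:85551844, in intergenic sequence 23832 bp upstream of G530012D18Rik, had Ctcf (6.00) at 51 bp and Rad21 (8.17) at 27 bp. A member of 17.8 lay in an intron of the noncoding gene Gm26870 at chr9:3008022, with 32 copies and an Arid1a summit (4.99) at the same base. The last, of 14.1, was intergenic, 18271 bp downstream of the start of Selenbp2, and had Ctcf (5.42) at 912 bp.

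WT-only summits were more often inside genes than the other strong distal summits, at a share close to that of distal WT summits of any strength. A gene body held 634 members (48.7%, 46.0 to 51.4%), against 47.7% of all distal WT summits, 37.4% (35.8 to 38.9%) of shared summits and 34.6% (32.2 to 37.2%) of KO-only summits. Gene bodies covered 45.3% of all distal autosomal bases, so the members lay slightly above this share and the shared and KO-only summits below it. Of the members, 54 were exonic, 580 intronic and 667 intergenic. Protein-coding genes held 549 (42.2%), against 29.7% of shared and 26.1% of KO-only summits, and 63 lay in long intergenic noncoding RNA genes. Among single-copy windows the gene-body shares were 54.7% (51.3 to 58.0%) of members, 48.8% (46.1 to 51.5%) of shared and 39.2% (35.1 to 43.6%) of KO-only summits, so the difference between members and shared summits was smaller there.

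The members touched many genes once. A total of 606 genes held a member, of which 546 held 1, 48 held 2, 11 held 3, and 1, the long gene model Gm20388 that spans Gse1 and Def8, held 7. Genes with 3 members included Mcu, the pore of the mitochondrial calcium uniporter (chr10:59446984-59616692), Sept9, a septin cytoskeleton gene (chr11:117199661-117362325), the synapsin gene Syn3 (chr10:86055125-86498896), Gse1, Ctdspl and Ldlrad4. The 3 members in Mcu had −log10 q of 7.44, 5.48 and 6.88, and the gene body held 61 WT and 37 KO H3K9me3 summits of any strength. In Sept9 the members had 5.59, 6.43 and 5.38, with 37 WT and 9 KO summits. In Gse1 they had 6.34, 6.34 and 6.10, with 54 WT and 13 KO summits. The group of 4 members lay at BC024063, at chr10:82102320-82112735, where 18 WT and 13 KO summits were counted within 10 kb. These places were named for holding the most members, so the choice itself favours WT over KO counts there. The whole autosomal lists held 141657 WT and 131430 KO summits, and these counts were not compared with those of other genes.

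Zinc-finger genes, a class whose clusters are coated by the mark in many cell types, held 20 members in 18 of 481 genes (1.54% of members), against 1.23% of all distal WT summits, 2.56% of shared and 3.95% of KO-only summits. They included Zfp777 (13.1), Zfp334 (11.96, in an exon), Zfp930 (10.1) and Zfp867 (8.96, in an exon), all outside masked sequence and with KO H3K9me3 between 1043 and 1623 bp away. Olfactory and vomeronasal receptor genes held 5 (0.384%), against 0.179% of all distal WT, 0.377% of shared and 0.359% of KO-only summits. The share was thus near that of the other strong sets, and 3 of the 5 lay in the gene model Olfr56. The genes of the H3K9 methylation machinery held 2 (0.154%), against 0.0402% of all distal WT, 0.0270% of shared and 0% of KO-only summits. Both lay in introns of Cbx5, which encodes heterochromatin protein 1 alpha, at chr15:103234967 (6.69) and chr15:103237523 (5.34). They were less than 3 kb apart, so the share rests on 1 gene. The nearest KO summits were 8026 and 10582 bp away. No member lay in the body of a protocadherin, a SWI/SNF subunit, a cohesin or Ctcf gene, a hepatocyte or epithelial-mesenchymal gene of the lists used, or a gene that the study singled out. Each of these lists held between 5 and 81 distal WT summits of any strength. Members made up 1301 of all 116971 distal WT summits, so an absence from lists this small says little. Shared summits numbered 2 in protocadherins, 1 in epithelial-mesenchymal genes and 0 in the other lists. KO-only summits numbered 2 in protocadherins, 1 in the genes the study singled out and 0 in the other lists.

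WT-only summits had factor summits nearby more often than the other H3K9me3 summits. At least 1 of Arid1a, Brg1, Ctcf and Rad21 lay within 1 kb of 559 members (43.0%, 40.3 to 45.7%), against 31.6% of all distal WT summits, 31.3% (29.8 to 32.8%) of shared and 18.8% (16.8 to 20.9%) of KO-only summits. Rad21 was near 286 members (22.0%, 19.8 to 24.3%), with 13.8% of all distal WT, 13.4% of shared and 6.38% of KO-only summits. Brg1 was near 232 (17.8%, 15.8 to 20.01%), with 11.8, 10.4 and 6.10% in the same order. Arid1a was near 216 (16.6%, 14.7 to 18.7%), with 10.2, 11.3 and 6.67%. Ctcf was near 183 (14.1%, 12.3 to 16.1%), with 10.6, 6.82 and 4.88%. For each factor the interval of the members lay above those of the other 3 sets, and the share of all distal autosomal bases within 1 kb of a summit was 4.66% for Arid1a, 5.28% for Brg1, 5.56% for Ctcf and 6.03% for Rad21. The factor maps come from WT cells alone, so the comparison with KO-only summits sets KO H3K9me3 beside WT factors. The series has 1 WT input for the WT H3K9me3 list and the factor lists. What part a control common to these lists has in the shares was not tested.

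Against shared summits, the difference lay in members with several factors. Exactly 1 factor was near 312 members (23.98%) and 23.0% of shared summits, which lay within each other's intervals, and near 20.3% of all distal WT and 13.9% of KO-only summits. Of members and shared summits, 2 factors were near 12.4 and 6.25%, 3 near 4.69 and 1.75%, and all 4 near 1.92% (25 members) and 0.296% (11 summits), with 0.554% of all distal WT summits. None of the 1394 KO-only summits had all 4, with an upper limit of 0.275%. Arid1a and Brg1 together were near 87 members (6.69%), against 3.16% of all distal WT and 3.05% of shared summits. Ctcf and Rad21 together were near 108 (8.30%), against 5.55 and 2.70%, and Brg1 with Rad21 near 103 (7.92%), against 3.39 and 2.37%.

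**Figure D3:**
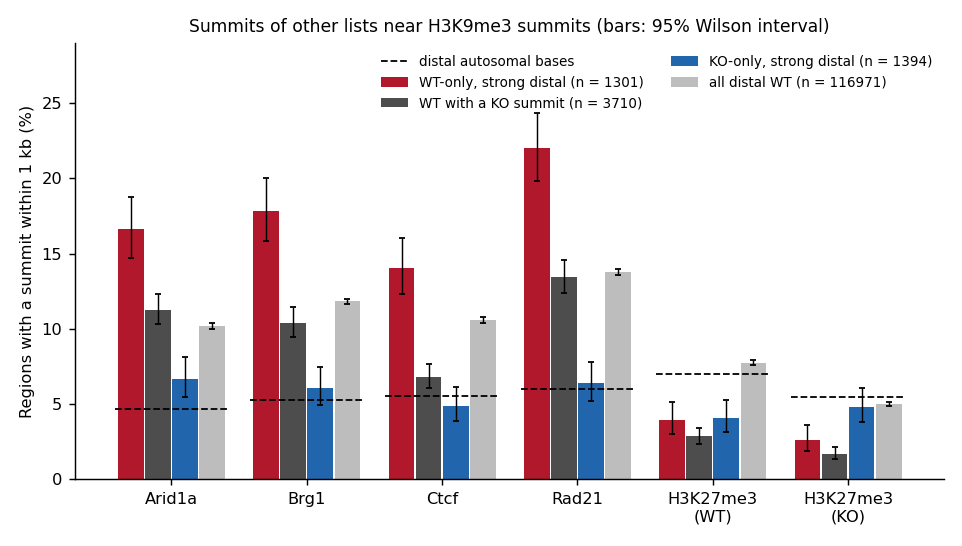
Bars give the percentage of H3K9me3 summits with a summit of each other list within 1 kb, for WT-only, shared (WT with a KO summit), KO-only and all distal WT summits, with 95% Wilson intervals, and dashed lines give the percentage of distal autosomal bases within 1 kb of that list. WT-only summits have the tallest bar for all 4 factors (16.6, 17.8, 14.1 and 22.0%) and sit under the dashed line for H3K27me3.

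The excess over shared summits was found in single-copy sequence. Among windows that occur once, a factor was near 50.8% of members (47.5 to 54.1%), 40.2% of shared (37.5 to 42.8%) and 25.7% of KO-only summits (22.1 to 29.7%). Ctcf was near 18.02, 8.83 and 7.57% of these, and Rad21 near 26.98, 16.1 and 8.57%. Among windows with more than 10 copies, a factor was near 26.3% of members (22.0 to 31.2%) and 25.5% of shared summits (23.6 to 27.4%), which did not differ beyond counting error, and near 14.0% of KO-only summits. Whether the difference itself varies with copy number was not tested. Leaving out chromosomes 10 and 5, a factor was near 40.3% of members and 28.5% of shared summits. The GC content of the windows had a median of 49.3% in both members and shared summits and 44.8% in KO-only summits, and its part in the comparison with KO-only summits was not tested.

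Factor summits were dense in the wider surroundings of the members as well as next to them. Counting on both sides, Rad21 summits stood at 186 per kb per 1000 members within 250 bp of the H3K9me3 summit and at 92.6 between 3 and 5 kb away. Around shared summits the same densities were 122 and 58.8. Brg1 stood at 137 and 84.7 around members and at 75.5 and 57.4 around shared summits. Ctcf stood at 118 and 71.1 against 52.8 and 44.8, and Arid1a at 108 and 71.7 against 87.3 and 51.1. The ratio of near to far was higher around members than around shared summits for Brg1 (1.61 against 1.31) and Ctcf (1.66 against 1.18). It was lower around members for Arid1a (1.501 against 1.71) and Rad21 (2.01 against 2.08). The members stood higher at both distances for each factor.

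**Figure D4:**
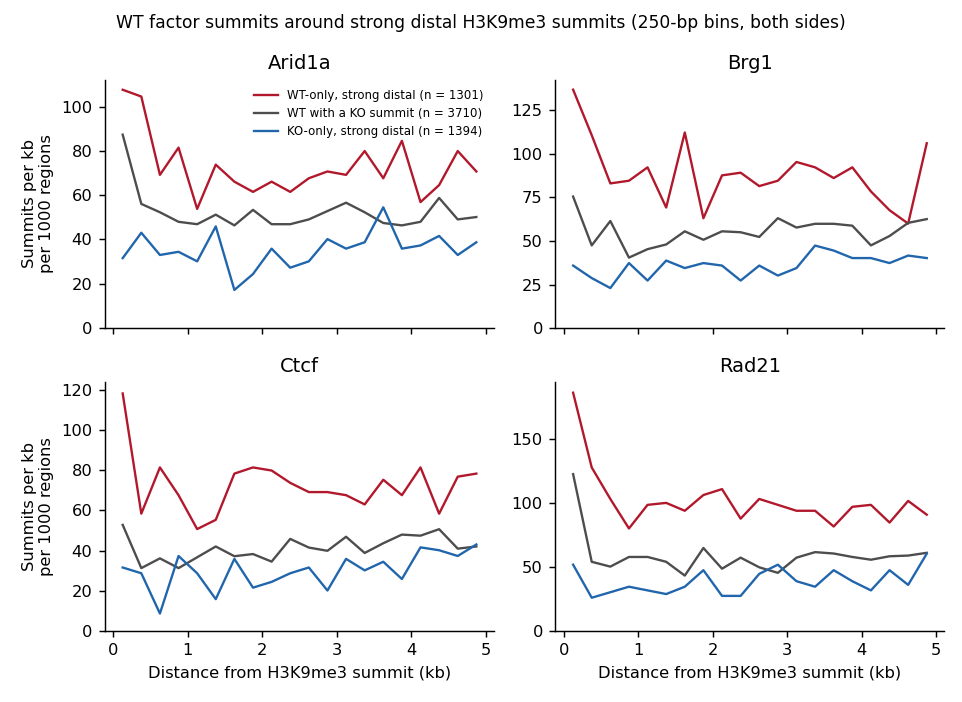
Each panel gives the number of WT summits of 1 factor per kb per 1000 regions (vertical) in bins out to 5 kb from the H3K9me3 summit, both sides added (horizontal), for WT-only, shared and KO-only summits. Around WT-only summits Rad21 is highest next to the summit with 186 and levels off near 92.6, and the WT-only line lies above the KO-only line in all 4 panels.

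The factor peaks beside the members were mostly weak. The strongest Brg1 summit within 1 kb had a median −log10 q of 3.10 over the 232 members, against 2.56 in the whole distal Brg1 list, and 14 (6.03%) reached 5. Arid1a had a median of 2.70, the same as its whole list. Ctcf had a median of 4.32 and a maximum of 89.9, and 78 (42.6%) reached 5, against 40.3% of its distal list. Rad21 had a median of 3.20, and 51 (17.8%) reached 5, against 25.1% of its list. The values of the members are the strongest summit within 1 kb, which favours them over the single summits of a whole list. Taken the same way, the medians beside shared summits were 2.56 for Brg1, 2.70 for Arid1a, 3.35 for Ctcf and 2.72 for Rad21. Beside KO-only summits they were 2.56, 2.56, 3.36 and 2.72 in the same order. The nearest factor summit was typically beside rather than on the H3K9me3 summit, with median distances from 314.5 bp for Rad21 to 401 bp for Arid1a among members that had one within 1 kb.

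The 5 sites with the strongest Brg1 beside Arid1a lay in windows of 54.7 to 64.2% GC. The leading one, at chr19:5058820, had H3K9me3 of 7.39, Brg1 of 9.69 at 488 bp, Arid1a of 3.86 at 202 bp and Rad21 of 5.50 at 6 bp. It was intergenic, 8339 bp downstream of the start of Rin1, a Ras effector gene, in a stretch with 11 WT and 0 KO H3K9me3 summits within 10 kb. The others lay upstream of the gene for the metalloproteinase inhibitor Timp2 (Brg1 of 6.11), in an exon of the actin-associated gene Pdlim4 (7.42), in an intron of Abi1 (6.31), and at chr6:47740705 (7.65), 72725 bp downstream of the start of Pdia4, where Ctcf reached 89.9 at 629 bp. Pdlim4 and Abi1 had all 4 factors within 1 kb. TGANTCA, the AP-1 site, searched on both strands, was present in 8.62% (5.65 to 12.9%) of the 232 windows with Brg1, in 8.07% (6.71 to 9.68%) of all members and in 6.35% of all distal WT windows, and was not in the Brg1 window printed above.

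Among members with both Ctcf and Rad21, the 5 with the strongest Ctcf were outside masked sequence and had H3K9me3 close to the limit of 5. The leading one, whose sequence with the Ctcf match is printed above, lay in an intron of 3110082I17Rik at chr5:139364519, with H3K9me3 of 5.13, Ctcf of 80.8 at 199 bp, Rad21 of 48.1 at 159 bp and the nearest KO H3K9me3 summit 50265 bp away. It was followed by sites near the interferon-induced gene Ifit1 (Ctcf of 76.7 and Rad21 of 25.8), near Keap1, the sensor of oxidative stress (62.2 and 16.4), near Igip (59.4 and 15.3) and near Gpd1 (57.2 and 27.3), with H3K9me3 between 5.08 and 5.45. The Ctcf letters CCANNAGNNGGC, on either strand, lay within 100 bp of the Ctcf summit at 42 of the 183 members with Ctcf (23.0%, 17.4 to 29.6%) and at 19.8% (15.3 to 25.1%) of the shared summits with Ctcf. Where the Ctcf peak had a −log10 q of at least 20, they were present at 11 of 22 members (30.7 to 69.3%) and at 3 of 22 shared summits (4.75 to 33.3%). These intervals overlapped. In the 201-bp windows on the H3K9me3 summits themselves they occurred in 1.54% of members and 1.56% of all distal WT summits.

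H3K27me3, the Polycomb mark of facultative heterochromatin, was seldom near the members. A WT H3K27me3 summit lay within 1 kb of 51 (3.92%, 2.99 to 5.12%), against 7.76% of all distal WT summits, 2.86% of shared and 4.09% of KO-only summits. A KO H3K27me3 summit lay within 1 kb of 34 (2.61%, 1.88 to 3.63%), against 5.01% of all distal WT, 1.70% of shared and 4.81% of KO-only summits. The mark was near 26 members in WT alone (1.998%) and near 9 in KO alone (0.692%), against 4.33 and 1.58% of all distal WT summits, so WT-alone cases outnumbered KO-alone cases in the whole list too. The strongest case was the tandem array at chr1:78573942, with H3K27me3 of 31.9 in WT and 23.1 in KO cells. The WT and KO values come from different libraries and are not on a common scale. The next were an intergenic site whose nearest protein-coding gene was Gpm6a (15.6 and 15.3), an exon of Kiss1, which encodes kisspeptin (15.0 and 14.5), and an intron of Arhgap21 (12.1 and 10.5), whose H3K9me3 reached 12.3. The fifth, an intergenic site at chr8:55113857, had 9.48 in WT and no KO H3K27me3 summit within 1 kb.

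Members far from any KO summit differed in make-up from those just beyond the limit. Masked bases made up 57.5% (53.5 to 61.4%) of the members with KO H3K9me3 at 1 to 2 kb, 43.8% at 2 to 5 kb, 36.1% at 5 to 20 kb and 36.8% (28.9 to 45.5%) beyond 20 kb. Single-copy windows made up 51.1% (47.1 to 55.1%) of the nearest class, 83.8% (79.2 to 87.5%) at 5 to 20 kb and 80.8% beyond. Gene bodies held 43.0% (39.1 to 47.0%), 46.3%, 54.3% and 68.0% (59.4 to 75.5%). A factor was near 36.6% (32.8 to 40.5%), 45.6%, 50.7% and 48.8% (40.2 to 57.5%), and Rad21 near 15.3, 21.4, 30.8 and 33.6%. The classes use the distance that also defines the set, so these shares are a description.

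**Figure D5:**
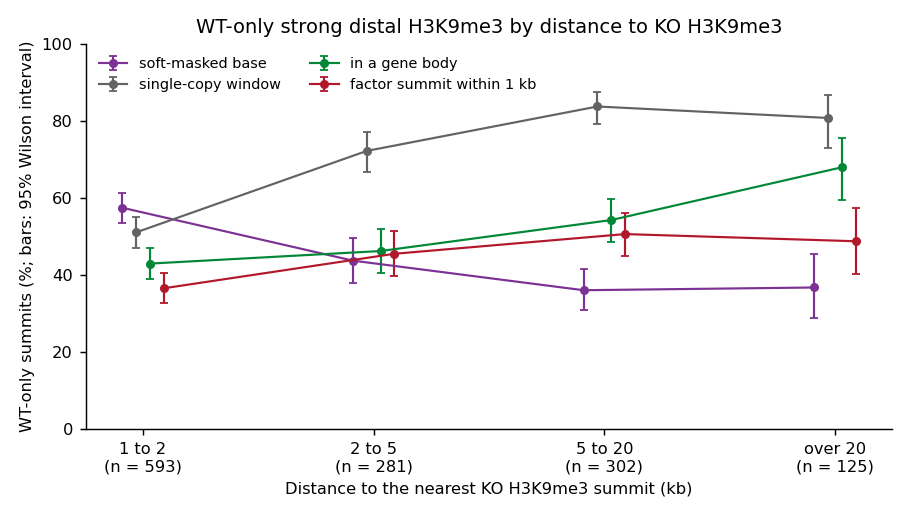
Points give the percentage of WT-only summits at a soft-masked base, in a single-copy window, in a gene body, or with a factor summit within 1 kb, in 4 classes of distance to the nearest KO H3K9me3 summit (593, 281, 302 and 125 summits), with 95% Wilson intervals. Masked bases go from 57.5 to 36.8% across the classes while gene bodies go from 43.0 to 68.0%.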

How the data were processed

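ChIP-seq was analysed from 8 summit lists of the 10 samples, grouped by genotype and antibody as the titles give them. The 2 inputs entered through peak calling. According to the methods and the submitters' processing notes, the authors used Bowtie2 for alignment to mm10, SAMtools for filtering, Picard for duplicates and MACS2 for peak calling against input. Versions are not given in the sources used here. The deposited value is a −log10 q-value, a unit read from the values, since the lists have no header. It grows with depth, which is unknown, so values of different lists are not on a common scale, although the same limit of 5 was applied to the WT and KO H3K9me3 lists. Narrow calling of broad H3K9me3 splits domains into loosely placed summits.

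Positions are 1-based, on 19 autosomes, and 0 summits lay beyond a chromosome end. Genes and transcript starts came from GENCODE vM21, sequence and soft-masking from the RefSeq GRCm38.p6 assembly. Summits at most 1000 bp apart counted as near. Shares carry 95% Wilson intervals, which cover counting error only and treat summits as independent. Copy number is the median count of the 31-base words of a 201-bp window on the assembled autosomes, and copies outside them were not counted. Recurring sequences were found with BLAST 2.17.0 and grouped when any pair was similar. The sequences of these groups and the third largest group are not reported here. Analyses used Python 3.11.15, numpy 2.4.6, pandas 2.3.3 and scipy 1.17.1, and the counting was tested on simulated summits.

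The members and gene lists were chosen with earlier results of these data known. Regions named were the 12 strongest members, genes with the most members, the longest groups, the 5 strongest each by Brg1 with Arid1a, by Ctcf with Rad21 and by H3K27me3, and at most 4 members per gene list. The alternatives were other distances, a stricter strength, merged neighbours, stronger partner peaks, and the set without members near all 4 factors. The CCANNAGNNGGC letters, the tandem measure and the split by copy number were added after the data had been seen.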

Additional observations from a re-analysis of the deposited data

How the results depend on the processing

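Each comparison rests on 1 library per group, so none has a replicate check, and summit lists of unknown depth differ in what they can detect. No paired analysis was possible because each group has 1 library and no result comes from a test. Of 66 values recomputed under the alternatives, 36 stayed within the interval of the reported share or within 1.5 times of the reported number. With a KO distance of 500 bp there were 2298 members, with 56.0% masked, 44.3% in gene bodies, Brg1 near 15.5%, Ctcf near 10.8%, Rad21 near 18.4% and H3K27me3 near 2.92%. With 3 kb there were 571, with 37.0% masked, 55.2% in gene bodies, Arid1a near 18.9%, Brg1 near 21.4%, Ctcf near 20.7%, Rad21 near 29.4% and H3K27me3 near 7.18%. With a −log10 q of at least 7 there were 224 members, with 56.2% masked, 45.1% in gene bodies and H3K27me3 near 2.23%. Counting partners within 500 bp gave 10.1% for Arid1a, 11.8% for Brg1, 8.76% for Ctcf, 14.9% for Rad21 and 2.84% for H3K27me3, and counting only partners with a −log10 q of at least 3 gave 5.84, 9.61, 9.92, 11.9 and 1.84% in the same order. Without chromosomes 10 and 5, a choice made after seeing the data, there were 988 members, and Arid1a was near 14.1%.

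The members had a lower masked share and higher shares of each of the 4 factors and of gene bodies than the shared summits under every alternative run, including those without chromosomes 10 and 5. The intervals overlapped at a −log10 q of at least 7 for gene bodies, Arid1a and Rad21. H3K27me3 changed order with the setting, and its interval overlapped that of the shared summits in the reported comparison.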
